A study of Homo sapiens with 16 samples.

Results

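The genes described here are 9 members of the cadherin switch and of the transcription factor network of epithelial-mesenchymal transition (EMT): ZEB1, ZEB2, SNAI1, SNAI2, TWIST1, PRRX1, CDH1, CDH2 and CDH3. They were taken by gene symbol from the count tables of all 16 libraries, and all 9 were found among the 28278 gene symbols. RNA was sequenced in SKMEL28 and A375, which are established cell lines from human melanomas. The SKMEL28 groups were clone 3 and clone 13 of a line labelled MITFKO, TFE3KO (DKO, 3 libraries each), the line labelled MITFKO in which TFE3 was not edited (3 libraries), and wild type (1 library). The A375 groups were TFE3KO and wild type (3 libraries each). TFE3 was edited with CRISPR-Cas9 and both DKO clones also carry the MITF edit of the MITFKO line, named D2 in the design text. Each edited SKMEL28 group is 1 clone, so p-values measure the spread between flasks of a clone and not between independently edited clones. For A375 TFE3KO the labels give replicate numbers and no clone. Its p-values, and those between the lines, cannot be read as a spread between independent edits either. SKMEL28 grew in RPMI and A375 in DMEM, with serum and antibiotics in both.

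EMT is the programme by which epithelial cells loosen their contacts and become motile. Its core factors ZEB1, ZEB2, SNAI1 (Snail), SNAI2 (Slug) and TWIST1 bind E-box sequences, and the ZEB and Snail proteins repress CDH1. Loss of E-cadherin (CDH1) with gain of N-cadherin (CDH2) is called the cadherin switch. Melanocytes come from the neural crest and express ZEB2 and SNAI2 while differentiated; in melanoma a change to ZEB1 and TWIST1 is known to accompany loss of differentiation. CDH3 encodes P-cadherin, which melanocytes also carry, and PRRX1 is a homeobox factor of mesenchymal cells. The miR-200 family represses ZEB1 and ZEB2 through sites in their 3′ untranslated regions, and ZEB1 and ZEB2 repress the miR-200 genes in turn.

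The edited factors MITF and TFE3 bind E-boxes of the letters CACGTG and CATGTG, and the ZEB and Snail proteins bind CACCTG. These hexamers were searched on both strands in the 250 bases before each annotated start, taken from RefSeq promoter entries of the build GRCh38.p14, since the counts were made on hg19. Entries were matched by symbol for ZEB1 (7 starts), ZEB2 (1), PRRX1 (1) and CDH2 (2). The 3 windows below are shown because they hold a hexamer, which is in capitals, and belong to ZEB1 and ZEB2. The first is the seventh ZEB1 start (chr10:31321410-31321659, plus strand), with CATGTG beginning 40 and 29 bases before the start. The second is the third ZEB1 start (chr10:31318966-31319215, plus strand), with CACCTG 242 bases before it and its reverse complement 85 bases before it. The last is the only ZEB2 entry (chr2:144520120-144520369, minus strand), with the reverse complement of CATGTG 180 bases before the start.
ZEB1 start 7: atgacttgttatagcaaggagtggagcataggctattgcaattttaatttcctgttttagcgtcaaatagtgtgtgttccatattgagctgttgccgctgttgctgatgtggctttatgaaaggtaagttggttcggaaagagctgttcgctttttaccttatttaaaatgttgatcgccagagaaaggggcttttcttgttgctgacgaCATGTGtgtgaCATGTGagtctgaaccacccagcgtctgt
ZEB1 start 3: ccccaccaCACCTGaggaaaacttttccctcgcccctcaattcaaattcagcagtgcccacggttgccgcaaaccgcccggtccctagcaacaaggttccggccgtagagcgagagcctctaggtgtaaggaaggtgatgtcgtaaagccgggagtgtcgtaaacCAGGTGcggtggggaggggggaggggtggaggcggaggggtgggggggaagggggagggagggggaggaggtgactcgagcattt
ZEB2: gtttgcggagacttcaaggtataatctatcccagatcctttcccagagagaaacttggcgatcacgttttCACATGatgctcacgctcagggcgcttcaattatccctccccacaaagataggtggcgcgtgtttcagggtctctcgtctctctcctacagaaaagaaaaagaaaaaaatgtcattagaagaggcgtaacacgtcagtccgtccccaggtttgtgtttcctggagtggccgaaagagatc
The first ZEB1 start also held CACCTG, on the opposite strand 57 bases before it. CACGTG was in no window of the 4 genes, and the PRRX1 and CDH2 windows held none of the 3 hexamers. Of 35116 promoter windows of the same length, 6.34% held CACGTG, 9.42% CATGTG and 17.5% CACCTG, so a match is a description of letters that many promoters share.

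The mature miR-200 sequences are shown because their seeds, bases 2 to 8 in capitals, sort the family into a pair of target groups. They are from RefSeq, GRCh38.p14.
hsa-miR-200b-3p: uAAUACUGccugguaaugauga
hsa-miR-200c-3p: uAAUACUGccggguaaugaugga
hsa-miR-200a-3p: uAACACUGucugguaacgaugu
hsa-miR-141-3p: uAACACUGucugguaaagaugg
The 3′ untranslated region of ZEB1 (2549 bases) held 6 matches to the miR-200b/c seed and 3 to the seed of miR-200a and miR-141, and that of ZEB2 (5370 bases) held 5 and 4. A match from each gene is printed, with the bases that pair with the seed in capitals.
ZEB1: attgttttatcttatCAGTATTa
ZEB2: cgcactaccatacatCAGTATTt
SNAI2 held 1 match to the miR-200b/c seed, and the other 6 genes held none of either. Among 19115 genes, 16% had at least 1 match to the miR-200b/c seed and 0.246% had at least 4; for the seed of miR-200a and miR-141 the shares were 18.2% and 0.303%. The rows of the miR-200 host transcript and hairpins held 0 counts in all 16 libraries, which allows up to 3 counts in a group. These libraries measure longer transcripts, so the mature miRNAs were not measured here.

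Total counts per library ran from 17320855 to 31269126. MITF RNA stood at 512 ± 30.8 CPM (SD, n = 3) in the line labelled MITFKO and at 539 CPM in wild type (log2 difference -0.07 ± 0.09 SE, adjusted p = 0.516), so the RNA level does not check the MITF label. MITF RNA was higher in both clones than in MITFKO, at 802 CPM in clone 3 and 894 CPM in clone 13, and fell to 18 ± 0.79 CPM in A375 TFE3KO against 34.7 ± 4.01 CPM in A375 wild type (adjusted p = 3.93e-13). TFE3 RNA fell in clone 3 (9.63 CPM) more than in clone 13 (47.0 CPM), against 75.4 CPM in MITFKO. It stood at 45.0 CPM in the SKMEL28 wild-type library, so clone 13 was near the wild-type level. In A375 TFE3 RNA fell to 11.6 CPM in TFE3KO against 119.5 CPM in wild type. CPM values are counts relative to library size, with trimmed-mean scaling over all 16 libraries together. Replicate 2 of clone 13 stood apart from its replicates over all genes (chi-square per degree of freedom 23.5 and 24.9, against 3.23 for the closest pair). Replicate 2 of clone 3 did so less (6.74 and 7.51, against 3.46 for the other pair of clone 3). For SNAI1, SNAI2 and ZEB2, and for CDH2 between the clones, values without replicate 2 of clone 13 are given too. Other clone 13 values include it. SOX10, which defines the melanocyte lineage, stood at 502 CPM or more in every group; TYR, a pigment enzyme, had 0 counts in both A375 groups.

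**Figure D1:**
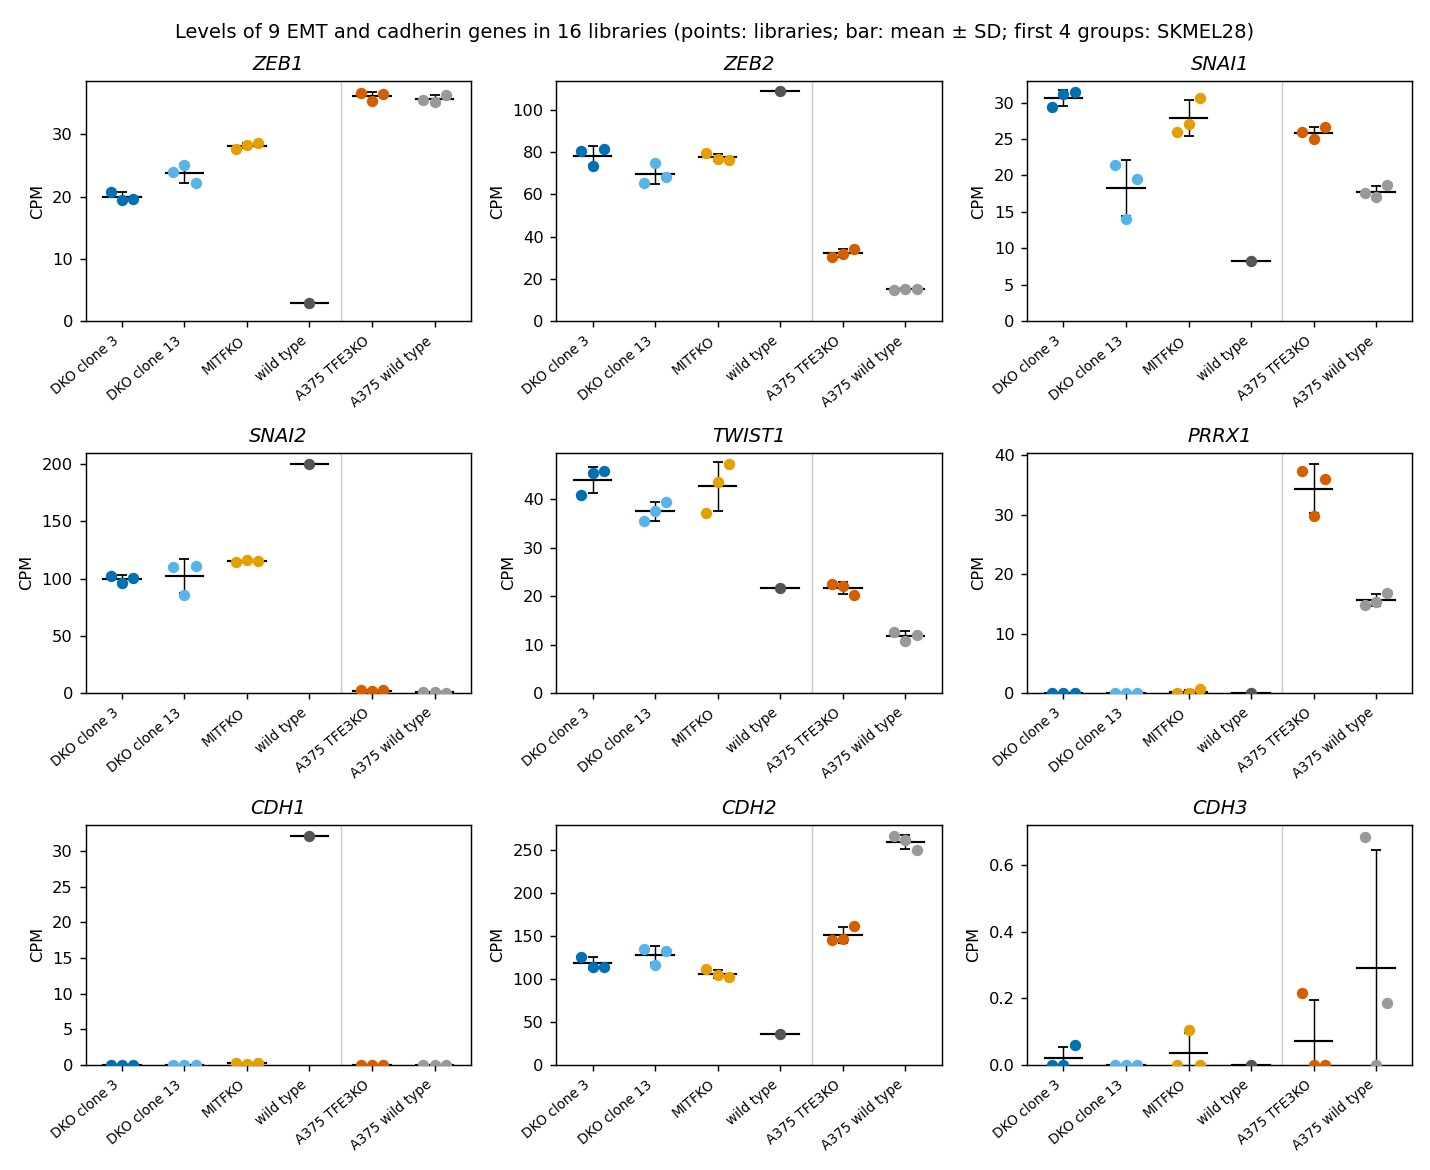
CPM of the 9 genes on the y axes (each axis from 0, scales differ) in the 6 groups on the x axes; points are libraries and bars are means ± SD, with 1 library for SKMEL28 wild type. ZEB1 and CDH2 were low and CDH1 was high in SKMEL28 wild type, and PRRX1 was counted almost only in A375.

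ZEB1 and ZEB2 are related zinc-finger homeobox repressors; over the 6 groups ZEB1 was lowest and ZEB2 highest in SKMEL28 wild type. ZEB1 was highest in A375, at 36.1 ± 0.73 CPM in TFE3KO and 35.7 ± 0.59 CPM in wild type, whose ranges overlapped. It stood at 19.96 ± 0.73 CPM in clone 3, 23.7 ± 1.48 CPM in clone 13, 28.2 ± 0.44 CPM in MITFKO and 2.87 CPM in SKMEL28 wild type, with no overlap between these groups. ZEB2 was at 78.3 ± 4.35 CPM in clone 3, 69.4 ± 4.76 CPM in clone 13 and 77.4 ± 1.64 CPM in MITFKO. It was at 109 CPM in SKMEL28 wild type, the highest of all. The range of clone 3 overlapped those of MITFKO and clone 13. In A375 ZEB2 was at 32.1 ± 1.88 CPM in TFE3KO and 15.2 ± 0.28 CPM in wild type. All SDs here are over 3 libraries.

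SNAI2 separated the lines more than any other factor expressed in both: group means were between 99.5 and 200 CPM in SKMEL28, and 2.13 ± 0.30 CPM in A375 TFE3KO and 0.508 ± 0.165 CPM in A375 wild type. PRRX1 had the reverse pattern. It had 0 counts in clone 3, clone 13 and SKMEL28 wild type, and 13 counts in MITFKO, of which 12 were in replicate 3. In A375 it reached 34.4 ± 4.07 CPM in TFE3KO and 15.6 ± 1.07 CPM in wild type. SNAI1 and TWIST1 were counted in every library, with group means from 8.28 to 30.7 CPM and from 11.8 to 44.1 CPM.

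Of the cadherins, CDH2 was counted in every library, highest in A375 wild type at 259 ± 8.27 CPM and lowest in SKMEL28 wild type at 35.7 CPM. CDH1 had 783 counts in the SKMEL28 wild-type library (32.1 CPM), 5, 1 and 5 counts in the MITFKO libraries and 0 in the other 12 libraries. CDH3 was close to absent, with 7, 0 and 0 counts in A375 TFE3KO and 15, 0 and 4 counts in A375 wild type. It had at most 2 counts in any SKMEL28 library. Counts of 0 allow up to 3 counts in a group, which is 0.0579 CPM in clone 3 and 0.0409 CPM in A375 TFE3KO.

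Per kilobase of exon, which allows genes to be compared, SNAI2 was the highest of the 6 factors in SKMEL28 wild type at 59.0 CPM per kb, above TWIST1 at 10.7, SNAI1 at 4.91, ZEB2 at 4.34 and ZEB1 at 0.332. In A375 wild type the order was SNAI1 at 10.6 CPM per kb, TWIST1 at 5.80, ZEB1 at 4.12, PRRX1 at 1.90, ZEB2 at 0.607 and SNAI2 at 0.150. CDH2 exceeded all factors in A375 wild type, at 52.4 ± 1.67 CPM per kb. Exon lengths came from GENCODE v29 and include every annotated isoform, so levels of genes with long alternative exons are understated. ZEB2 has the longest of the 6 factors, at 25058 bases against 8650 for ZEB1, so its place in these orders depends on the length used.

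MITFKO was compared with wild type to ask how the line differs from its parent. Wild type is 1 library, assumed in the fit to vary like the other SKMEL28 groups, so the p-values hold no replication of wild type. ZEB1, SNAI1, TWIST1 and CDH2 rose and CDH1, SNAI2 and ZEB2 fell. All 7 genes that passed the filter on low counts were called at an adjusted p under 0.05, 4 higher and 3 lower, where 48.6% of 14605 genes tested were called, 25.2% higher and 23.4% lower. CDH1 passed that filter through the wild-type library alone, and without it 6 of 6 were called. PRRX1 and CDH3 were too low to be tested. Fold changes come from edgeR's quasi-likelihood fit, and each adjusted p is adjusted over all genes of its comparison by the Benjamini-Hochberg method.

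CDH1 had 0.238, 0.0517 and 0.256 CPM in the MITFKO libraries, against 32.1 CPM in wild type. Every MITFKO library was far below the wild-type library, and the MITFKO level was 0.572% of wild type (exact 95% interval 0.284% to 1.03%, counting error only). The log2 fold change was -7.40 ± 0.40 SE. It is given as an effect size only, since CDH1 passed the filter on low counts through the wild-type library alone. CDH2, the other side of the switch, had 111, 104 and 102 CPM in MITFKO against 35.7 CPM in wild type. All 3 MITFKO libraries were above it, with a log2 fold change of 1.57 ± 0.11 (adjusted p = 5.64e-11).

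ZEB1 had 27.7, 28.3 and 28.6 CPM in MITFKO, against 2.87 CPM from 70 counts in wild type. The groups did not overlap and ZEB1 was 9.81-fold higher in MITFKO (log2 3.29 ± 0.19, adjusted p = 3.28e-12). SNAI1 had 26.0, 27.0 and 30.7 CPM in MITFKO against 8.28 CPM in wild type (log2 1.75 ± 0.20, adjusted p = 1.92e-07). TWIST1, a basic helix-loop-helix factor, had 37.3, 43.6 and 47.3 CPM in MITFKO against 21.7 CPM in wild type (log2 0.98 ± 0.14, adjusted p = 4.30e-06). The factors that melanocytes express went the other way. SNAI2 had 114, 116 and 115 CPM in MITFKO against 200 CPM in wild type (log2 -0.79 ± 0.10, adjusted p = 1.97e-06), and ZEB2 had 79.3, 76.8 and 76.2 CPM against 109 CPM (log2 -0.49 ± 0.09, adjusted p = 0.000137). Both stayed well expressed in MITFKO.

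The file headers read STAR on data 3 for the wild-type library and STAR on data 38 for the edited SKMEL28 libraries. What the number stands for is not given, and that difference and the genotype cannot be told apart. The summed CPM of 8 melanocytic markers was 5555 to 5825 in MITFKO and 14230 in wild type, with none of the 8 at 0 in either. PMEL made up most of the sum, at 3370 CPM in MITFKO against 10440 CPM in wild type. Of the 8, 6 were called lower and 2 higher (75% and 25%, all genes 23.4% and 25.2%). SOX10 rose to 843 CPM in MITFKO against 690 CPM in wild type, and S100A1 to 396 CPM against 325 CPM. The part of the sum in these differences was not tested. In RNA from whole cultures, fewer cells of a kind and less RNA per cell cannot be told apart.

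**Figure D2:**
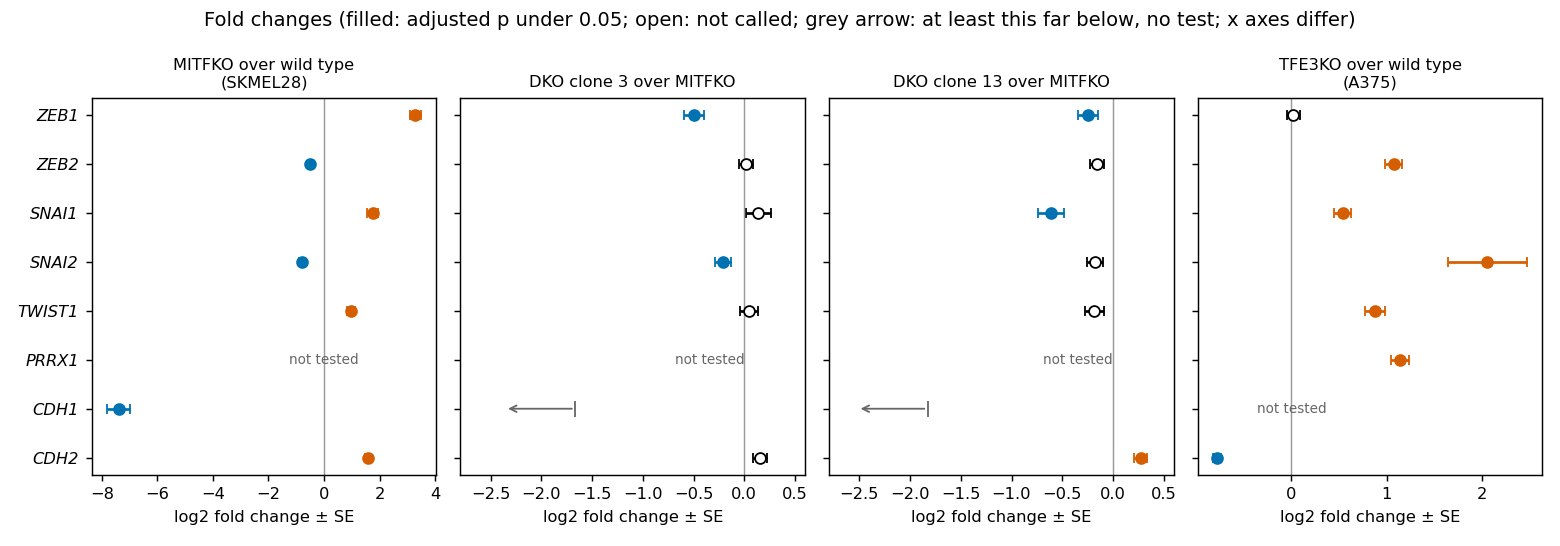
Log2 fold change ± SE on the x axes (scales differ) of 8 genes in 4 comparisons; filled points were called, open points were not, and grey arrows start at the bound for CDH1, which had 0 counts in both DKO clones and is given with no test there. In MITFKO over wild type CDH1 stands at -7.40 and ZEB1 at 3.29, while in A375 5 factors are to the right of 0 and CDH2 is to the left.

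Both DKO clones were compared with MITFKO to ask what editing TFE3 changed in cells with an edited MITF. ZEB1 fell in both clones and CDH2 rose in clone 13. CDH1 passed the filter on low counts only through wild type, which is not compared here, so it is described without a test. In clone 3, 2 of the other 6 genes tested were called, both lower, where 35.9% of genes were called, 18.2% higher and 17.6% lower. In clone 13 it was 3 of 6, 1 higher and 2 lower, where 40.7% were called, 20.5% higher and 20.2% lower. These comparisons share the MITFKO libraries.

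ZEB1 had 20.8, 19.4 and 19.7 CPM in clone 3 and 23.9, 25.1 and 22.2 CPM in clone 13, against 27.7, 28.3 and 28.6 CPM in MITFKO. Every DKO library was below every MITFKO library. The log2 fold change was -0.50 ± 0.10 in clone 3 (adjusted p = 0.000487) and -0.25 ± 0.10 in clone 13 (adjusted p = 0.0490). The clone 13 call was lost in 8 of 12 alternatives, with adjusted p up to 0.181; the mean of both clones (-0.37 ± 0.09, adjusted p = 0.00120) kept its call in all 14.

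CDH1 had 0 counts in each of the 6 DKO libraries, against 5, 1 and 5 counts in MITFKO. With the 11 MITFKO counts taken as they stand and a floor of 3 counts over a clone, it was 3.17-fold lower or more in clone 3. In clone 13 it was 3.54-fold lower or more. These bounds leave out the counting error of the 11 MITFKO counts. Without the wild-type library it was too low to pass the filter. CDH2 had 135, 116 and 132 CPM in clone 13 and 126, 113 and 114 CPM in clone 3, against 111, 104 and 102 CPM in MITFKO. All DKO libraries were above the MITFKO libraries, but only clone 13 was called (log2 0.27 ± 0.07, adjusted p = 0.00235; clone 3, log2 0.16 ± 0.07, adjusted p = 0.0762).

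SNAI1 differed between the clones. It had 29.4, 31.2 and 31.4 CPM in clone 3 and 21.4, 14.0 and 19.5 CPM in clone 13, against 26.0, 27.0 and 30.7 CPM in MITFKO. Clone 3 overlapped MITFKO (log2 0.14 ± 0.12, adjusted p = 0.417), while clone 13 lay below it (log2 -0.61 ± 0.13, adjusted p = 0.000457). Clone 13 against clone 3 gave a log2 fold change of -0.75 ± 0.13 (adjusted p = 0.000118), the only call among the 6 genes tested in that comparison, where 27.6% of genes were called, 14.3% higher and 13.4% lower. With the replicate number as a block, TWIST1 was also called (log2 -0.23, adjusted p = 0.0361). Replicate 2 of clone 13 was the lowest; without it the difference from MITFKO was -0.44 (adjusted p = 0.000976) and that from clone 3 was -0.58 (adjusted p = 6.04e-05). Leaving it out also brought ZEB2, SNAI2 and CDH2 past the threshold between the clones, at log2 differences of -0.22, 0.16 and 0.18 (adjusted p = 0.0135, 0.0410 and 0.0235).

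SNAI2 had 103, 95.8 and 100.2 CPM in clone 3 and 110.5, 85.2 and 111 CPM in clone 13, against 114, 116 and 115 CPM in MITFKO. Neither clone overlapped MITFKO, and SNAI2 was called in clone 3 (log2 -0.21 ± 0.08, adjusted p = 0.0408) but not in clone 13 (-0.17 ± 0.08, adjusted p = 0.0849). The clone 3 call was lost without any 1 of its own or the MITFKO libraries (adjusted p = 0.0637 to 0.137) and with DESeq2 (adjusted p = 0.0522). Without replicate 2 of clone 13 the clone 13 difference was -0.05 (adjusted p = 0.524). The mean of both clones was called (-0.19 ± 0.07, adjusted p = 0.0269); it lost the call without any 1 MITFKO library or without replicate 2 of clone 3 (adjusted p = 0.0583 to 0.0883). In the mean of both clones, 3 of the 6 genes were called, where 41.1% of genes were, 20.4% higher and 20.7% lower: CDH2 higher (0.21 ± 0.06, adjusted p = 0.00538) and ZEB1 and SNAI2 lower.

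ZEB2 and TWIST1 were called in neither clone. The log2 fold changes of ZEB2 were 0.02 ± 0.07 in clone 3 (95% interval -0.12 to 0.15) and -0.16 ± 0.07 in clone 13 (-0.29 to -0.02, adjusted p = 0.0757). ZEB2 lay below MITFKO in all 3 clone 13 libraries, and was called there without replicate 2 of clone 13 (log2 -0.21, adjusted p = 0.0135). Those of TWIST1 were 0.05 ± 0.09 in clone 3 (-0.14 to 0.23) and -0.18 ± 0.09 in clone 13 (adjusted p = 0.1253). PRRX1 was at 0 counts in both clones against 13 in MITFKO and was too low to pass the filter; nearly all of those counts came from 1 library. The summed CPM of 9 keratinocyte markers was 264.5 to 275.3 in clone 3 and 284 to 368.8 in clone 13, against 189.6 to 205.9 in MITFKO. The basal keratinocyte gene KRT5 was at 0 CPM in clone 13 and in MITFKO and at 0.0591 CPM in clone 3, DSG3 was at 0 in all groups, and PERP, which many cell types express, made up most of the sum. Of 5 keratinocyte markers tested, 3 were called higher in clone 3 (KRT15, KRT10 and PERP), where 18.2% of all genes were. In clone 13 it was 4 (KRT14 besides), where 20.5% of all genes were. None was called lower, where 17.6% of all genes were in clone 3 and 20.2% in clone 13. KRT15 stood at 31.6 CPM in clone 3 and 35.3 CPM in clone 13, against 19.4 CPM in MITFKO, and KRT14 at 1.08 CPM in clone 3 and 2.99 CPM in clone 13, against 0.659 CPM in MITFKO. The part of these markers in the differences was not tested.

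A375 TFE3KO was compared with A375 wild type to ask what editing TFE3 changed where MITF had been left as it was. Here 5 of the 6 EMT factors rose and CDH2 fell, while ZEB1 was not called. Of 7 genes tested, 6 were called, 5 higher and 1 lower, where 43.3% of 14012 genes were called, 21.3% higher and 22% lower. All 6 kept their calls in each of the 10 alternatives.

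ZEB2 had 30.5, 31.8 and 34.2 CPM in TFE3KO against 14.9, 15.4 and 15.4 CPM in wild type. The groups did not overlap, and ZEB2 was 2.11-fold higher (log2 1.08 ± 0.09, adjusted p = 6.05e-15). ZEB1 had 36.6, 35.3 and 36.5 CPM in TFE3KO against 35.6, 35.2 and 36.3 CPM in wild type. These ranges overlapped, with a log2 difference of 0.02 ± 0.07 (95% interval -0.12 to 0.16, adjusted p = 0.843). PRRX1 had 37.4, 29.8 and 36.0 CPM in TFE3KO against 14.7, 15.4 and 16.8 CPM in wild type (log2 1.14 ± 0.09, adjusted p = 2.26e-15).

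TWIST1 had 22.6, 22.1 and 20.3 CPM in TFE3KO against 12.7, 10.7 and 12 CPM in wild type (log2 0.88 ± 0.11, adjusted p = 6.49e-10). SNAI1 had 25.9, 25.0 and 26.6 CPM in TFE3KO against 17.6, 17.1 and 18.7 CPM in wild type (log2 0.54 ± 0.09, adjusted p = 1.96e-06). Every TFE3KO library was above every wild-type library for both genes. SNAI2 had 76, 40 and 42 counts in TFE3KO against 12, 14 and 7 counts in wild type, a rise of 2.06 ± 0.41 on the log2 scale (adjusted p = 4.40e-05) from a low level. CDH2 had 145, 147 and 162 CPM in TFE3KO against 266, 262 and 250 CPM in wild type. It fell by 0.78 on the log2 scale (SE 0.04, adjusted p = 8.82e-23), the only gene of the 7 to fall. CDH1 was at 0 counts in all 6 A375 libraries, so N-cadherin RNA fell with no E-cadherin RNA detectable at this depth.

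The summed CPM of the 8 melanocytic markers was 865.4 to 949.2 in TFE3KO and 507 to 534.5 in wild type, with 2 markers at 0 in each group. This sum was mostly SOX10, at 787 CPM in TFE3KO against 502 CPM in wild type. The 7 fibroblast markers summed to 10.9 to 12.4 CPM in TFE3KO and 7.28 to 10.3 CPM in wild type, and the fibroblast collagens COL1A2 and COL3A1 were under 0.1 CPM in both. PDGFRA was called higher, at 2.18 CPM in TFE3KO against 0.615 CPM in wild type, and PDGFRB stood at 7.16 CPM in TFE3KO and 6.61 CPM in wild type. The 8 leukocyte and endothelial markers summed to 10.31 to 13.04 CPM in TFE3KO and 4.48 to 6.35 CPM in wild type, mostly KDR, which was called higher (10.33 CPM in TFE3KO against 4.22 CPM in wild type). Their part in the rise of the factors was not tested.

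**Figure D3:**
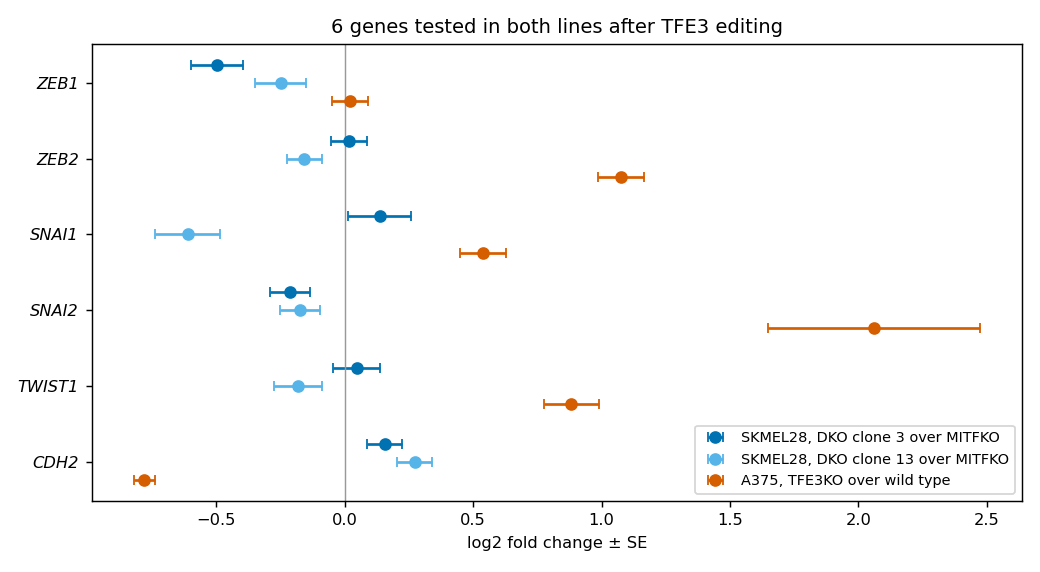
Log2 fold change ± SE on the x axis after TFE3 editing for the 6 genes tested in both lines (rows), in SKMEL28 clone 3 and clone 13 over MITFKO and in A375 TFE3KO over wild type. The A375 points of ZEB2, SNAI2 and TWIST1 stand at 1.08, 2.06 and 0.88, to the right of both clones, and that of CDH2 at -0.78, to the left.

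The effect of TFE3 editing was set against itself in the other line, as the mean DKO effect in SKMEL28 minus the effect in A375, in a joint fit of 15 libraries. The 6 genes tested in both lines were all called, CDH2 higher and the others lower. Of 15093 genes, 37.7% were called, 18.5% higher and 19.3% lower. CDH2 differed by 1.00 ± 0.08 on the log2 scale (adjusted p = 4.76e-11), with opposite signs in the lines. ZEB2 differed by -1.14 ± 0.10 (adjusted p = 2.24e-10), SNAI2 by -2.25 ± 0.27 (adjusted p = 1.29e-07) and TWIST1 by -0.94 ± 0.13 (adjusted p = 1.09e-06). SNAI1 differed by -0.77 ± 0.15 (adjusted p = 0.000134) and ZEB1 by -0.38 ± 0.11 (adjusted p = 0.00507). PRRX1 passed the filter on low counts through A375 alone, so it is described without a test. It had 0 counts in both clones and 13 in MITFKO, 12 of them in replicate 3. Its log2 difference of -6.32 rests on that library and was -3.48 without it. The lines differ in MITF status, medium and remaining TFE3 RNA, and these cannot be told apart here.

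The balance within a library, the log2 ratio of the counts of 2 genes with 0.5 added to each, needs no scaling between libraries. The ZEB1 to ZEB2 balance was -1.97 ± 0.07 in clone 3, -1.55 ± 0.08 in clone 13, -1.46 ± 0.05 in MITFKO (SD, n = 3 each) and -5.23 in SKMEL28 wild type. It was therefore 3.78 higher in MITFKO than in wild type, and the differences from MITFKO were -0.51 in clone 3 and -0.09 in clone 13. The clone 3 libraries, from -2.04 to -1.91, lay below the MITFKO libraries, from -1.52 to -1.41, and the clone 13 libraries overlapped MITFKO. In A375 the balance was 0.17 ± 0.09 in TFE3KO and 1.23 ± 0.03 in wild type (SD, n = 3 each), a difference of -1.06, with no overlap.

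The shift in SKMEL28 came with ZEB1 higher and ZEB2 lower, whereas the A375 shift came with ZEB2 higher at a ZEB1 level whose ranges overlapped. Per kilobase of exon, ZEB1 made up 42.5% of both ZEB genes in clone 3, 49.8% in clone 13, 51.4% in MITFKO and 7.10% in SKMEL28 wild type. The share was 76.5% in A375 TFE3KO and 87.2% in A375 wild type. By counts, without regard to length, it was 20.3% in clone 3, 25.5% in clone 13, 26.7% in MITFKO and 2.57% in SKMEL28 wild type, and 53.0% in A375 TFE3KO and 70.1% in A375 wild type. ZEB1 therefore exceeded ZEB2 on both scales in the A375 groups, whereas in MITFKO the share depends on the exon lengths used.

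The CDH1 to CDH2 balance was -9.21 ± 1.04 in MITFKO (SD, n = 3) and -0.15 in SKMEL28 wild type, where CDH1 made up 47.4% of the counts of both genes and 41.9% per kilobase. In MITFKO the share of counts was 0.171% (0.0494% to 0.251% by library). In the DKO clones and both A375 groups CDH1 was at 0, so their ratios, -11.99 in clone 3, -12.3 in clone 13, -12.8 in A375 TFE3KO and -13.4 in A375 wild type, are set by the count added and by CDH2. SKMEL28 wild type was the only group in which the RNA of both cadherins was of the same order.

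**Figure D4:**
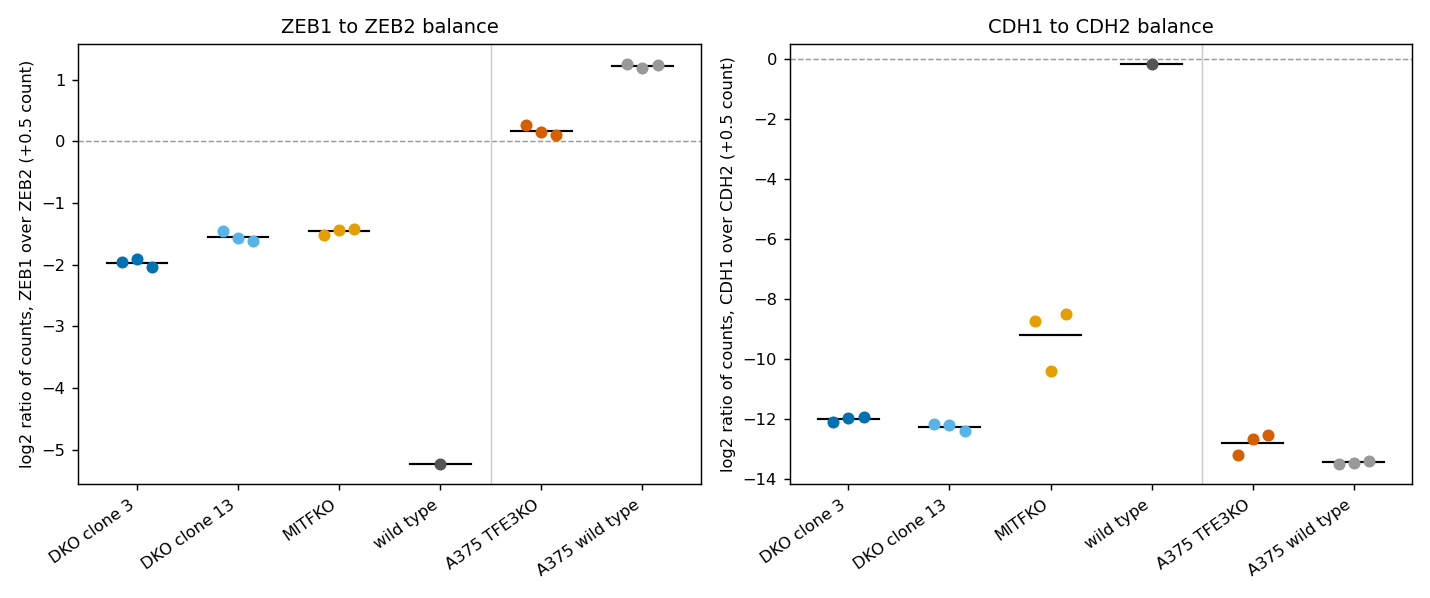
Log2 ratio of counts on the y axes, ZEB1 over ZEB2 (left) and CDH1 over CDH2 (right), with 0.5 added to each count; points are libraries, bars are group means and the dashed line marks equal counts. SKMEL28 wild type stands at -5.23 on the left and -0.15 on the right, and the A375 groups are the ones above 0 on the left.

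The genes whose pattern over the 6 group means was most like that of a member were found among 11878 genes of at least 5 CPM in 1 group, by the root-mean-square difference of centred log2 CPM. For ZEB1 they were NOTCH3 (0.20), ZNF385A (0.22) and ZSWIM4 (0.23), and for ZEB2 AXIN2 (0.12), LOC100505874 (0.15) and NINL (0.16). For CDH1 they were PRKCB (0.20), DENND2D (0.21) and SLCO2B1 (0.29), and for CDH2 TNFSF9 (0.13), NFKB2 (0.15) and SMURF2 (0.17). PRKCB stood at 26.5 CPM in SKMEL28 wild type and at 0.135 CPM or less elsewhere, as CDH1 did. With 6 group means, likeness of this size is a description.

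Other EMT transcription factors moved in part with the 9 genes. In MITFKO over wild type 5 rose and 1 fell of 10 tested (50% and 10%, where 25.2% and 23.4% of all genes did). FOXC2, a forkhead factor, stood at 6.95 ± 0.88 CPM in MITFKO against 0.246 CPM in wild type (log2 4.78 ± 0.45, adjusted p = 9.54e-09), and KLF4, a Krüppel-like factor, at 21.2 ± 2.85 CPM against 1.56 CPM (log2 3.76 ± 0.26). The median log2 fold change of the list was 0.73, against 0.01 over all genes tested. In clone 3 over MITFKO 1 rose and 5 fell of 10 (10% and 50%, all genes 18.2% and 17.6%), among them KLF8 (-1.38) and HMGA2 (-0.62), and in clone 13 1 rose (SOX4, 1.02) and 1 fell (ETS1, -0.35), where 20.5% and 20.2% of all genes did. In A375 TFE3KO 2 rose and 7 fell of 11 (18.2% and 63.6%, all genes 21.3% and 22%), with a median of -0.61 against 0.00 over all genes. HMGA2 fell to 168 ± 1.89 CPM in A375 TFE3KO against 555 ± 4.38 CPM in wild type (log2 -1.73 ± 0.03), SOX9 by 2.42 on the log2 scale, FOXC2 by 1.13 and TWIST2, a close relative of TWIST1, by 0.70. TCF4, the E-protein partner of TWIST factors, also fell in A375 TFE3KO by 0.69. SNAI3, a relative of Snail and Slug, was at 0.562 CPM or less in every group.

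Cofactors and upstream regulators of the ZEB and Snail proteins rose and fell in similar numbers in MITFKO over wild type, 8 and 7 of 17 (47.1% and 41.2%, all genes 25.2% and 23.4%). TGFB1, a ligand that induces EMT, rose to 72.1 ± 1.52 CPM in MITFKO against 5.13 CPM in wild type (log2 3.81 ± 0.17, adjusted p = 3.93e-14), its receptor TGFBR2 rose by 1.03 and FOSL1, an AP-1 subunit, by 2.51. CTBP2, a corepressor bound by ZEB1, fell by 1.00, and CTBP1 was at -0.13 ± 0.11 and not called. In clone 3 over MITFKO 4 rose and 1 fell (23.5% and 5.88%, all genes 18.2% and 17.6%), and in clone 13 3 rose and 8 fell (17.6% and 47.1%, all genes 20.5% and 20.2%). TGFBR2 rose in both, by 0.43 and 0.49, and GSK3B, a kinase that marks Snail for degradation, fell by 0.57 and 0.37. In A375 TFE3KO 3 rose and 6 fell of 16 (18.8% and 37.5%, all genes 21.3% and 22%). There TGFB1 fell to 104 ± 1.51 CPM against 179 ± 4.54 CPM in wild type (log2 -0.79 ± 0.04), TGFBR2 fell by 1.22, FOSL2 fell by 1.502 and FOSL1 fell by 0.42, while GSK3B rose by 0.57. FBXW7, a ubiquitin ligase subunit, fell by 0.57 in clone 13 over MITFKO.

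Few other cadherins were expressed. Of 5 tested in SKMEL28, 1 rose and 1 fell in MITFKO over wild type (20% each, all genes 25.2% and 23.4%). CDH19, a cadherin of Schwann cells and melanocytes, rose to 33.0 ± 2.11 CPM in MITFKO against 11.9 CPM in wild type (log2 1.48 ± 0.15). CDH7 fell by 2.49. In clone 13 over MITFKO only CDH19 was called (higher, 0.48 ± 0.09), where 20.5% of all genes rose. In clone 3 only CDH7 was called (lower, -1.36 ± 0.44), where 17.6% of all genes fell. With 5 genes tested, these counts are near those shares. In A375 TFE3KO 3 of 6 fell and none rose (50% and 0%, all genes 22% and 21.3%). These were CDH6 at a low level (-2.66 ± 0.49), CDH19 (-0.73 ± 0.07) and CDH13, or T-cadherin. CDH6 passed the filter on low counts through A375 wild type alone. CDH13 stood at 104 ± 0.84 CPM in TFE3KO against 145 ± 8.30 CPM in wild type (-0.48 ± 0.05). CDH13 was at 0.0760 CPM or less in every SKMEL28 group. CDH11, the cadherin of mesenchymal cells, was at 0 or within 0.432 CPM in all groups, and CDH4 was called nowhere it was tested.

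Among catenins and other junction proteins, 3 rose and 5 fell of 15 in MITFKO over wild type (20% and 33.3%, all genes 25.2% and 23.4%). CTNNB1 (beta-catenin) stood at 428 ± 10.2 CPM in MITFKO against 766 CPM in wild type (log2 -0.84 ± 0.07), and CTNNA1 (alpha-catenin) rose by 0.82 ± 0.08. JUP (plakoglobin) stood at 0.0993 CPM in MITFKO against 1.03 CPM in wild type. JUP passed the filter on low counts through the wild-type library alone and is among the genes counted as falling. NECTIN2, an adhesion molecule, rose by 1.13, and CTNND1 (p120-catenin) was at -0.76 ± 0.36 and not called. In clone 3 4 rose and 2 fell (26.7% and 13.3%, all genes 18.2% and 17.6%), and in clone 13 3 rose and 3 fell (20% each, all genes 20.5% and 20.2%). In A375 TFE3KO 6 rose and 5 fell (40% and 33.3%, all genes 21.3% and 22%). With 15 genes tested, the counts in MITFKO and clone 13 are near those shares. ADAM10, the protease that sheds cadherins, rose in both clones over MITFKO, by 0.32 and 0.34, and in A375 TFE3KO by 0.30. NECTIN3 rose by 0.47 in clone 3 and NECTIN1 by 0.67 in clone 13, while CTNNA2 (neuronal alpha-catenin) fell by 1.29 in clone 13. VCL (vinculin), which links catenins to actin, fell by 0.76 in A375 TFE3KO. CTNND2 had 2 counts in A375 TFE3KO (0.0362 CPM) against 37 counts in A375 wild type (0.570 CPM). It passed the filter on low counts through A375 wild type alone, so it is described without a test. The 5 genes that fell in A375 TFE3KO include it.

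Of 25 epithelial genes, 5 rose and 5 fell in MITFKO over wild type (20% each, all genes 25.2% and 23.4%). In clone 3 over MITFKO 4 rose and 3 fell (16% and 12%, all genes 18.2% and 17.6%), and in clone 13 4 rose and 6 fell (16% and 24%, all genes 20.5% and 20.2%). In A375 TFE3KO 4 rose and 8 fell of 23 (17.4% and 34.8%, all genes 21.3% and 22%). The SKMEL28 counts are near or under the shares of all genes. ESRP1, an epithelial splicing factor, was highest in SKMEL28 wild type, as CDH1 was, with 25.7 ± 0.79 CPM in clone 3, 16.7 ± 0.37 CPM in clone 13, 15.1 ± 0.08 CPM in MITFKO and 71.0 CPM in wild type. It fell by 2.23 in MITFKO (adjusted p = 6.97e-13) and rose by 0.76 in clone 3 (adjusted p = 2.22e-06). CLDN1, a tight junction claudin, went against CDH1, at 9.89 ± 0.91 CPM in MITFKO against 0.369 CPM in wild type, and fell in both clones (-1.73 and -2.03). GRHL2 and OVOL2, epithelial factors that oppose ZEB1, were at 0.568 CPM or less in every group, and EPCAM at 0.574 CPM or less. SPINT1, a protease inhibitor, had 0 counts in MITFKO against 0.615 CPM in wild type. SPINT1 passed the filter on low counts through the wild-type library alone and is among the genes counted as falling in MITFKO. CDS1 fell by 2.99 in clone 13. In A375 TFE3KO PKP2, a desmosomal protein, fell by 2.87 and LAD1 rose by 2.30.

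Mesenchymal genes rose more often than they fell in SKMEL28, and the reverse held in A375. In MITFKO over wild type 16 rose and 5 fell of 30 (53.3% and 16.7%, all genes 25.2% and 23.4%), with a median log2 fold change of 0.39 against 0.01 over all genes. In clone 3 over MITFKO 16 rose and 3 fell (53.3% and 10%, all genes 18.2% and 17.6%), and in clone 13 19 rose and 2 fell (63.3% and 6.67%, all genes 20.5% and 20.2%). In A375 TFE3KO 6 rose and 18 fell (20% and 60%, all genes 21.3% and 22%), with a median of -0.29 against 0.00. In the test of the TFE3 effect between lines, the log2 fold change of 20 of 31 was higher in SKMEL28 than in A375 and that of 4 was lower (64.5% and 12.9%, all genes 18.5% and 19.3%); this compares changes, not levels. VIM (vimentin) rose by 0.68 ± 0.08 in MITFKO, by 0.65 ± 0.06 in clone 13 and by 0.19 ± 0.03 in A375 TFE3KO. FN1 (fibronectin) rose by 1.15 ± 0.06 in clone 13 and fell by 1.41 ± 0.04 in A375 TFE3KO. It moved little elsewhere in SKMEL28, at 6140 CPM in clone 3 and 5753 CPM in MITFKO against 5300 CPM in wild type. COL5A1, a fibrillar collagen, rose by 1.39 in clone 3 and 3.20 in clone 13 and fell by 1.02 in A375 TFE3KO. MMP1, a collagenase, rose by 5.52 in MITFKO. It was lower in the clones, at 61.6 CPM in clone 3 and 77.9 CPM in clone 13 against 111.6 CPM in MITFKO. AXL, a receptor kinase, was at 1.19 CPM in clone 3, 0.596 CPM in clone 13 and 0.0476 CPM in MITFKO, against 381 CPM in A375 TFE3KO and 657 CPM in A375 wild type, and the integrin ITGB3 rose by 1.51 in A375 TFE3KO. The summed CPM of the 7 fibroblast markers was 102 to 109.7 in clone 3 and 76.4 to 89.2 in clone 13, against 51.9 to 62.4 in MITFKO, and 45.3 in SKMEL28 wild type; its part was not tested. The type I collagen genes moved at low levels. COL1A2 had 25 counts in all 3 libraries of clone 3 (0.485 CPM) against 3 counts in MITFKO (0.0488 CPM). It passed the filter on low counts through clone 3 alone, so it is described without a test. The 16 genes that rose in clone 3 include COL1A2 and AXL, which passed through the clones alone. COL1A1 fell to 1.56 CPM in A375 TFE3KO, against 4.47 CPM in A375 wild type. In A375 the mesenchymal genes therefore fell more often than they rose in the same libraries in which 5 EMT factors rose.

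**Figure D5:**
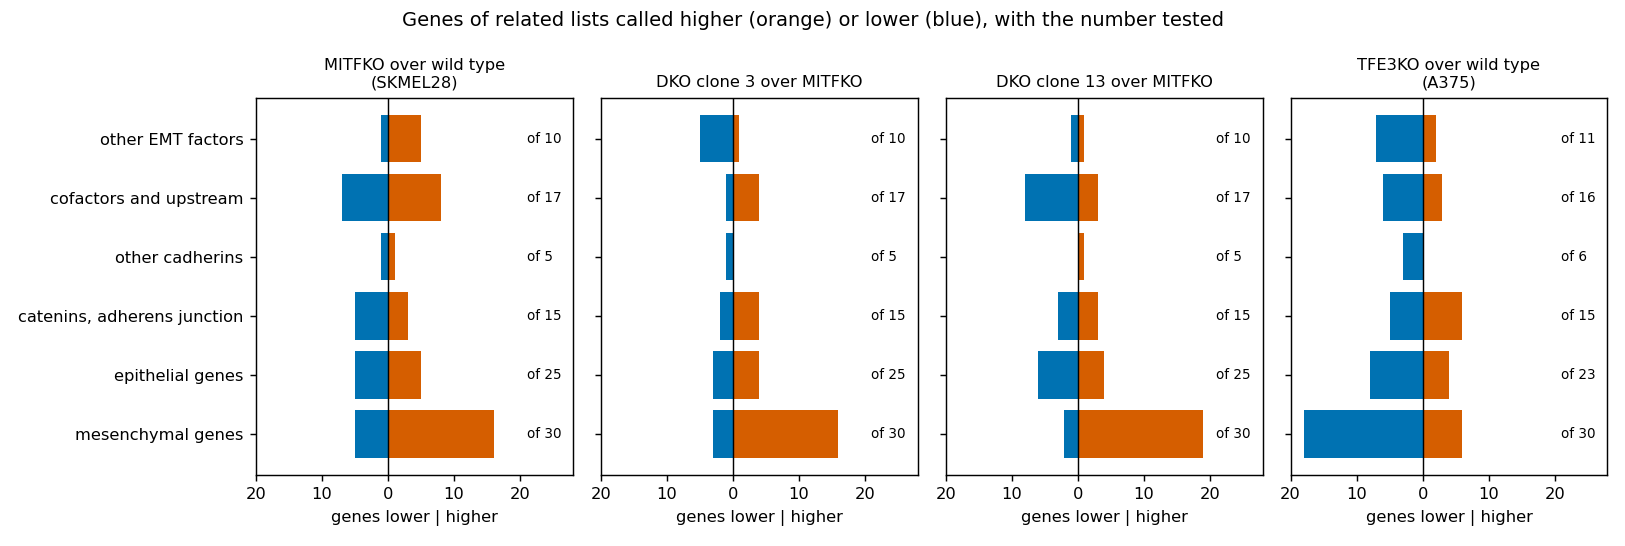
Number of genes called higher (right, orange) or lower (left, blue) on the x axes in 6 related gene lists (rows), with the number tested beside each bar, in 4 comparisons. Mesenchymal genes have 16, 16 and 19 called higher in the SKMEL28 panels and 18 called lower in the A375 panel.

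ZEB1-AS1, transcribed beside ZEB1 on the opposite strand, stood between 1.02 and 1.49 CPM by group and was called in no comparison. The sources do not say whether counting used strand, so reads of ZEB1 and ZEB1-AS1, and of ZEB2 and its antisense neighbour, may be mixed.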

How the data were processed

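RNA-seq of 16 libraries was deposited as whole-number read counts per gene symbol, not normalised. Per the submitters' processing notes, STAR, featureCounts, DESeq2 and the build hg19 were used, with no versions or order; for strandedness, annotation release and multimapping reads the answer is not given in the sources used here. The deposited counts were tested here with edgeR 4.0.16 in R 4.3.3: filterByExpr by group, TMM factors and the robust quasi-likelihood test with Benjamini-Hochberg adjustment, a gene being called at an adjusted p under 0.05. All SKMEL28 libraries entered 1 model and all A375 libraries another; the lines were compared in a further fit that left out SKMEL28 wild type. SE is the absolute log2 fold change over the square root of F. The edgeR fit was tested on simulated counts with known changes, for each comparison except the mean of both clones. The other steps were not tested on simulated data. Alternatives were DESeq2 1.42.0, RLE factors, no filter, the replicate number as a block, only the groups compared, and leaving out libraries. Groups and replicate numbers follow the sample labels. The fits have no replicate block. Same-numbered libraries did not deviate together between MITFKO and the clones (r -0.06 to 0.08) or in A375 (-0.09 to -0.01). Between clone 3 and clone 13 all 3 same-numbered pairs did (r 0.13, 0.36 and 0.14), as did replicates 1 and 3 across numbers (0.13 and 0.16), so a blocked value stands beside that comparison; this pairing comes from the data, not the labels.

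The 9 genes, the related lists, the tests and the rules for naming were chosen with earlier results of these data known. Named were the 9 genes, MITF and TFE3, 21 genes picked from the lists by name where counted, the 2 called genes of largest change per list and comparison (MITFKO over wild type, each clone over MITFKO, and A375), and the 3 genes most alike for each of ZEB1, ZEB2, CDH1 and CDH2. Some genes that this rule names are not reported here. A few further genes of the lists (TGFB1, TGFBR2, FOXC2, GSK3B, ADAM10 and COL5A1 in comparisons where they were not largest, and single markers), the microRNA rows and ZEB1-AS1 were added after their values were seen. Lengths are the union of exons in GENCODE v29; sequences are from RefSeq tables of GRCh38.p14 and matched by symbol only, and no position was carried over to hg19. A count of 0 is bounded by 3 counts over a group. Intervals and floors cover counting error only, since no molecular identifiers are named in the labels and reads need not be independent.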

Additional observations from a re-analysis of the deposited data

Results flagged for a closer look

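TFE3 editing gave different changes in SKMEL28 and A375 in the test of the difference itself (edgeR, SKMEL28 mean DKO effect minus A375 effect, log2). The difference was -0.38 for ZEB1 (adjusted p = 0.00507), -1.14 for ZEB2 (adjusted p = 2.24e-10) and -0.77 for SNAI1 (adjusted p = 0.000134). It was -2.25 for SNAI2 (adjusted p = 1.29e-07), -0.94 for TWIST1 (adjusted p = 1.09e-06) and 1.00 for CDH2 (adjusted p = 4.76e-11). PRRX1 passed the filter through A375 alone and is given without a test. It had 13 counts in MITFKO, 12 of them in replicate 3, and its difference was -6.32, or -3.48 without that library. SNAI1 was lower in clone 13 than in clone 3 by the test of that difference (log2 -0.75, adjusted p = 0.000118), in 3 of 3 libraries.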

How the results depend on the processing

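Of the 6 genes tested between clone 13 and clone 3, 1 was called, where 27.6% of all genes were. With the replicate block it was 2, and without 1 library it ran from 1 to 4. It was 2 without replicate 2 of clone 3 (ZEB2 added) and 4 without replicate 2 of clone 13. Over all genes, 4036 were called in the main fit and 4410 with the block. Without replicate 2 of clone 3 it was 3674 genes, and without replicate 2 of clone 13 it was 3857. With 2 counts added in place of 0.5, the CDH1 to CDH2 balance was -9.99 in clone 3, -10.26 in clone 13, -10.81 in A375 TFE3KO and -11.45 in A375 wild type, since CDH1 was at 0 there. Uncalled differences near 0 changed sign without 1 library: ZEB2 in clone 3 over MITFKO (-0.0098 to 0.062, with -0.0012 without MITFKO replicate 3 and -0.0041 without clone 3 replicate 1), TWIST1 in the same comparison (-0.050 to 0.12) and in the mean of both clones (-0.16 to 0.0078), and SNAI2 between the clones (-0.018 to 0.16, with -0.011 without clone 13 replicate 1).

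Over single genes and alternatives, 535 values kept direction and side of the threshold, 20 lost a call and 17 gained one; the cause was not tested. With the block, which shares no number with the SKMEL28 wild-type library, CDH2 was called in clone 3 over MITFKO (log2 0.15, adjusted p = 0.0411), SNAI2 in clone 13 over MITFKO (-0.18, adjusted p = 0.0370) and TWIST1 between the clones (-0.23, adjusted p = 0.0361). With no filter, PRRX1 had a log2 difference of -5.14 in the mean of both clones over MITFKO. That value rests on MITFKO replicate 3, which held 12 of the 13 counts, and is given without a test. CDH1 passed the filter in no fit without the SKMEL28 wild-type library; with no filter it was not called between the lines (adjusted p = 0.9998). Depth limits CDH1, CDH3 and PRRX1 where they had under 15 counts, and no scaling moved the median of all genes by over 0.1.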
